A study of Rattus norvegicus with 5 samples.

Results

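Integrins are cell surface receptors, each a pair of an alpha and a beta chain, and laminins and collagens are trimeric proteins of the extracellular matrix to which many of them bind. The 61 genes described here are those whose symbol in the platform annotation begins with the integrin, laminin or collagen chain prefixes, of 12198 named genes, and they carry 86 of the 33849 discovery probes. They comprise 22 integrin chains with 32 probes (the receptors), 36 laminin and collagen chains with 50 probes (the matrix chains), and 3 genes that share the prefix but encode no chain (Itgb1bp1, Itgb1bp2 and Itgb3bp). Several chains carried no probe named in the annotation used and are not analysed here, among them Itgav, Itgb8, Itga2b, Itgax, Lama2, Lamb1, Col3a1, Col4a2 and Col6a3.

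Total RNA of 4 rat hepatocellular carcinoma lines and 1 rat liver was labelled and hybridised to 5 whole-genome CodeLink slides in a single colour, 1 slide a sample. N1 and L2 are the lines with high metastatic ability. C5F and C6 are those with low metastatic ability. All 4 lines derive from liver tumours of male F344 rats given N-nitrosomorpholine and diethylnitrosamine, with an age of 31 weeks in the labels, and the liver came from an untreated male SD rat of 50 weeks. The lines and the liver thus differ in strain and age as well as in origin, which cannot be told apart here, and each line is represented by 1 sample on 1 slide of its own.

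In tissue, the alpha chain largely sets which ligand an integrin recognises. In hepatocytes and stellate cells collagen is bound through alpha1beta1, while epithelial cells of ducts and many carcinomas bind laminin through alpha3beta1 and alpha6beta4. Beta2 integrins are receptors of leukocytes. Laminins assemble from an alpha, a beta and a gamma chain and build basement membranes with collagen IV, whereas collagens I, III and V form fibrils that in liver come mainly from stellate cells and fibroblasts. The sinusoids of normal liver hold little organised basement membrane.

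Signals are background-subtracted intensities, quantile normalised between arrays, and values are given as log2 of that signal unless stated otherwise. A signal was set to at least 2.53 (log2 of 1.34), so that 1.34 stands for a spot at this floor. A spot is called above background or near background by the scanner software, and a spot called irregular, contaminated or masked is treated as not usable. Differences are log2 differences ± the standard error (SE) of 1 limma model over all probes, with Benjamini-Hochberg adjusted p over all probes tested and a threshold of 0.05. Of 11949 probes tested against liver, 9.01% rose and 9.38% fell in the lines (18.4% in either direction), which is the background for every count of chains below. With 2 lines a class and 1 liver, the error is the spread between the lines of a class, and the liver is assumed to vary as they do. Where every line is at or near the floor the spread is small by construction and the SE rests largely on the model's prior, so that the fold is also given as a lower bound.

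Of 6 hepatocyte markers 5 were tested, and 3 fell in the lines (Alb, Cps1 and Cyp2e1), against 9.38% of all probes. These 3 were kept only through liver and were near background in every usable line, so the filter that kept them favoured a fall. Tf and Ttr did not pass (adjusted p = 0.117 and 0.127). They had 8.90 and 8.71 in C5F and the floor in N1, L2 and C6. Apoa1 had 10.02 in C5F and no usable spot in liver. The summed signal of 4 hepatocyte markers was 10.1 in N1, 10.1 in L2, 902.5 in C5F and 10.9 in C6, against 20005.6 in liver. Between 30.6% and 39.2% of discovery probes were above background on an array. Precision is limited by having 5 arrays.

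Of the 58 chains, 35 were above background on at least 1 array, 16 receptors and 19 matrix chains. By the probe of highest mean signal of each gene, receptor chains above background numbered 8 in N1, 8 in L2, 10 in C5F and 7 in C6, against 11 in liver. Matrix chains numbered 9 in N1, 11 in L2, 10 in C5F and 10 in C6, against 11 in liver. The totals are thus close, but the chains behind them differ. There were 14 chains above background in both liver and a line, 8 in liver and in no line (against 9.92% of all probes above background in liver), and 9 in a line but near background in liver. The other 4 (Itgam, Itgb3, Col1a2 and Col5a3) had no usable spot in liver. Only Itga3, Itga7, Lama5 and Col5a1 were above background on all 5 arrays. The 23 chains near background wherever they had a usable spot include Itga2, Itga5, Itga8, Itgb6, Lama1, Lamc3, Col4a3, Col4a4, Col4a5, Col6a2, Col8a1 and Col12a1. A spot near background sets only an upper limit, and it does not show that the gene is not expressed.

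**Figure D1:**
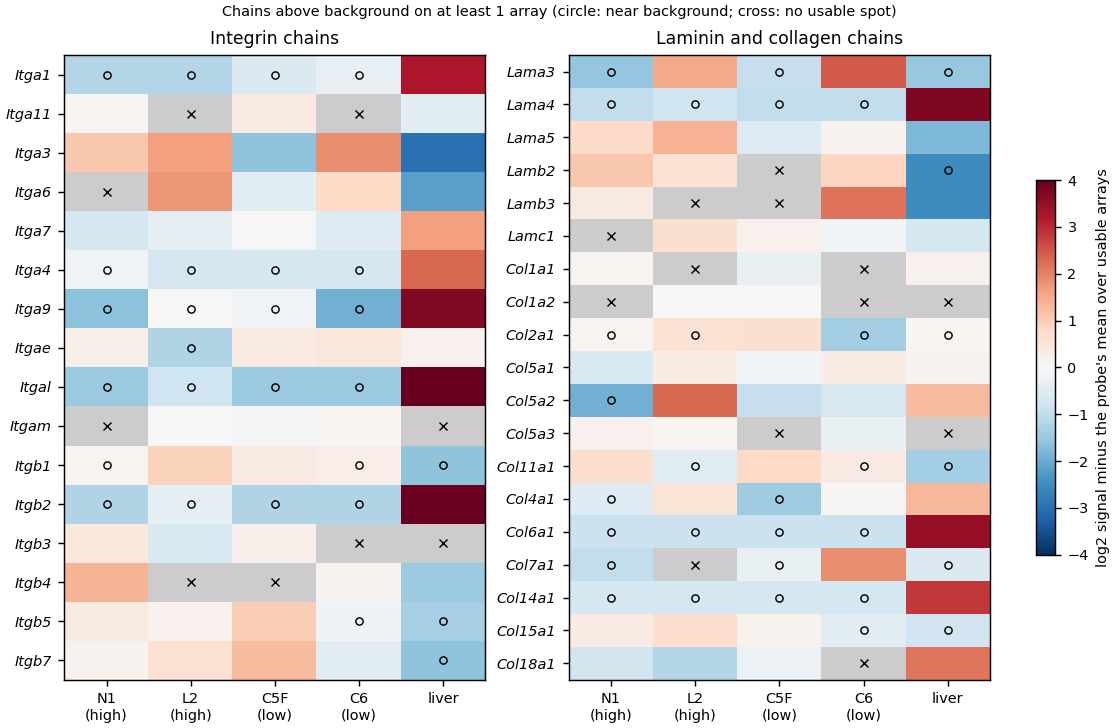
Log2 signal of each chain that was above background on at least 1 array, minus the mean of its probe over the usable arrays, with integrin chains on the left and laminin and collagen chains on the right. Columns are N1 and L2 (high-metastatic), C5F and C6 (low-metastatic) and liver. Circles mark spots near background and crosses spots without a usable value. Itga1, Itga4, Itga9, Itgal, Itgb2, Lama4, Col6a1 and Col14a1 are dark red in liver and near background in every line.

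Sequences are shown for the 4 chains on which the description of the laminin side turns: Lama5 and Itga3, measured on all arrays, and Lama3 and Lamb3, chains of laminin-332. Each is 300 bases from RefSeq (build GRCr8), 250 before and 50 after the gene start, read 5′ to 3′ along the gene's strand. Capitals mark TGANTCA (the letters of the AP-1 site) in Lama3 and Lamb3, and GGGCGG or its reverse complement (the letters of the GC box) in Lama5 and Itga3. They lie at chr18:3952517-3952816 on the plus strand (Lama3), chr13:107362303-107362602 on the plus strand (Lamb3), chr3:187695925-187696224 on the minus strand (Lama5) and chr10:80518852-80519151 on the minus strand (Itga3).
Lama3: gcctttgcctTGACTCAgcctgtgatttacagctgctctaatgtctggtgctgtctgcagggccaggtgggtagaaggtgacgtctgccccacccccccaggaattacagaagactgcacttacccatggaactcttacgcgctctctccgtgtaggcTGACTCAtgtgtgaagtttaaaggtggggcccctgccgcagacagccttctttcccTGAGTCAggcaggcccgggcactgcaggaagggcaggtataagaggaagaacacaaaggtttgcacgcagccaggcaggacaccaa
Lamb3: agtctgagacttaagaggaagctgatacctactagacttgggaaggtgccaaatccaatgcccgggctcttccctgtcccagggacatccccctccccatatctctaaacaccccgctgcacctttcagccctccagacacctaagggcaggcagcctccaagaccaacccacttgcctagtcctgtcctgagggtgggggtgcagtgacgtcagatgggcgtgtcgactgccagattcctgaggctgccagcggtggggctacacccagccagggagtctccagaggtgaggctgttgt
Lama5: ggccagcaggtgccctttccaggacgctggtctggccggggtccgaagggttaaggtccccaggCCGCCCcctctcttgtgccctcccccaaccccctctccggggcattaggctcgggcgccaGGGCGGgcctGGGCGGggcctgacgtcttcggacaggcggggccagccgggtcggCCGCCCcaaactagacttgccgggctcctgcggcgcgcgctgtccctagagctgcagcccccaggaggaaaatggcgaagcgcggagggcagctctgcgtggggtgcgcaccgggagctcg
Itga3: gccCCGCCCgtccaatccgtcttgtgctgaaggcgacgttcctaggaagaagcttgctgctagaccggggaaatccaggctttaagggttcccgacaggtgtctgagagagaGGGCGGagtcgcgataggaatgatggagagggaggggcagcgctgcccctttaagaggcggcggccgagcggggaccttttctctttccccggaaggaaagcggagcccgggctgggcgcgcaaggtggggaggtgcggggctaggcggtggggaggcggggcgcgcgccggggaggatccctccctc

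Both strands were searched, and the letters of the 2 motifs cannot overlap. The Lama3 window holds TGANTCA 3 times, starting at -240, -92 and -36 from the gene start, whereas the Lamb3 window holds it nowhere. Of 33469 rat promoter windows of this length, 2453 (7.33%) hold TGANTCA at least once and 5 hold it 3 or more times. The Lama5 window holds GGGCGG 4 times and the Itga3 window 2 times, and 33.1% of all windows hold it. Promoter windows were found for 48 of the 61 genes, of which 25 hold GGGCGG and 2 (Lama3 and Col6a1) hold TGANTCA. These matches describe letters only.

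Among the alpha chains that bind laminin, Itga3 and Itga6 were brighter in every usable line than in liver, and Itga7 was dimmer in every line. Itga3, the alpha chain of alpha3beta1, had 8.24 in N1, 8.78 in L2, 5.55 in C5F and 9.0 in C6, against 4.18 in liver. C5F was the lowest line, the other 3 lay within 0.76 of each other, and liver was below all 4. The difference of the lines from liver was 3.71 ± 1.5 (adjusted p = 0.172), and it did not pass. Itga6, which pairs with beta1 or beta4, had 8.42 in L2, 6.23 in C5F and 7.44 in C6, against 4.47 in liver, and its spot in N1 was called irregular. The difference was 3.15 ± 0.68 (adjusted p = 0.0939), while with irregular spots kept, among them 8.58 for N1, it was 3.20 with an adjusted p of 0.0376. Itga7, a laminin receptor known best from muscle, had 4.46 in N1, 4.79 in L2, 5.14 in C5F and 4.65 in C6, against 6.80 in liver. It fell by 2.04 ± 0.31 in the lines (adjusted p = 0.0363), and no line reached the liver. That call was lost when arrays were scaled to the median of probes above background (adjusted p = 0.0899) or to the 75th percentile (0.0507), and without a filter on dim probes (0.0802).

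Of the alpha chains that bind collagen, Itga1, Itga2 and Itga10 were near background in every line, and Itga11 was above background in each line by 1 of its 2 probes or both. Itga1, the alpha chain of the main collagen receptor of hepatocytes and stellate cells, had 2.43 in N1, 2.42 in L2, 3.04 in C5F and 3.27 in C6, all near background, against 6.84 in liver. It fell by 4.05 ± 0.22 (adjusted p = 0.00902), at least 10.5-fold lower in the lines. Itga2 and Itga10 were near background on all 5 arrays, between 1.34 and 2.05. Itga11, a receptor for fibrillar collagen, had 2 probes with usable spots on different arrays. The brighter had no usable spot in L2 and C6 and read 5.42 in N1 and 5.65 in C5F, against 4.92 in liver, with no test. The other read 3.32 in N1, 4.01 in L2, 3.60 in C5F and 4.63 in C6, against 1.58 in liver, where it was near background, and its difference of 2.31 ± 0.56 did not pass (adjusted p = 0.0754).

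The alpha chains that bind VCAM1, fibronectin or tenascin were above background in liver or nowhere. Itga4, known from leukocytes, had 1.91 in N1 and the floor in L2, C5F and C6, against 4.35 in liver. It fell by 2.86 ± 0.31 (adjusted p = 0.0216), at least 1.89-fold lower, and with an offset of 50 in place of the floor the adjusted p was 0.0650. Itga9, a tenascin receptor, had 1.62 in N1, 3.29 in L2, 3.11 in C5F and the floor in C6, against 6.96 in liver. Its difference of -4.62 ± 1.05, at least 11.3-fold lower, did not pass (adjusted p = 0.0674), whereas its other probe fell by 4.32 ± 0.54 (adjusted p = 0.0276), at least 7.17-fold. Itga5, the fibronectin receptor chain, and Itga8 were near background on every array.

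Of the alpha chains of leukocytes, Itgal, which with Itgb2 makes the receptor LFA-1, had 2.02 in L2 and the floor in N1, C5F and C6, against 8.03 in liver. It fell by 6.52 ± 0.35 (adjusted p = 0.00902), at least 24.2-fold lower in the lines, and its other probe was near background on all arrays. Itgb2, the beta chain shared by leukocyte integrins, had 2.20 in L2 and the floor in the other 3 lines, against 6.51 in liver, and fell by 4.95 ± 0.41 (adjusted p = 0.0150), at least 8.45-fold. Both chains were thus near background in every line. Itgae, a receptor for E-cadherin in intraepithelial lymphocytes, instead had 4.93 in N1, 3.54 in L2 (near background), 5.10 in C5F and 5.18 in C6, against 4.89 in liver. The difference of -0.20 ± 0.62 (adjusted p = 0.833) was within its error. The other Itgae probes were near background on every array and read lower in liver (1.57 and 1.34) than in any line. Itgam had 5.45 in L2, 5.34 in C5F and 5.50 in C6, with no usable spot in N1 and liver.

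Of the beta chains, Itgb1, the partner of most alpha chains listed, was dim: 3.06 in N1, 3.85 in L2, 3.26 in C5F and 3.21 in C6, against the floor in liver. Only L2 and C5F were above background, and its other probe was near background on all 5 arrays, so the level of Itgb1 is little more than a bound here. Its difference of 2.00 ± 0.39 had an adjusted p of 0.0516, and with the 4 lines fitted as 1 group it passed (adjusted p = 0.0287). Itgb4, which pairs only with alpha6 and binds laminin in hemidesmosomes, was represented by a probe with usable spots of 7.55 in N1 and 6.34 in C6, against 4.71 in liver, with no test. Its other probe was usable everywhere and had 7.32 in N1, 6.23 in L2, 3.34 in C5F and 6.24 in C6, against 3.60 in liver, with C5F and liver near background. The 2 probes thus put N1 and C6 above liver alike, and as with Itga3 the C5F value lay far below the other 3 lines. The difference from liver by this other probe was 2.18 ± 1.33 (adjusted p = 0.307).

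Of the remaining beta chains, Itgb6 was near background on all arrays and the others were above background in at least 3 lines. Itgb7, the partner of alpha4 and alphaE, had 5.37 in N1, 5.85 in L2, 6.48 in C5F and 4.79 in C6, against 3.63 in liver, where it was near background. That difference of 1.99 ± 0.77 did not pass (adjusted p = 0.161), while its other probe rose by 2.71 ± 0.22 (adjusted p = 0.0149), at least 1.13-fold higher. Itgb5, a vitronectin receptor chain, had 3.97 in N1, 3.79 in L2, 4.59 in C5F and 3.41 in C6, against 2.29 in liver, and its difference of 1.65 ± 0.54 did not pass (adjusted p = 0.124). Itgb3 had 5.47 in N1, 4.43 in L2 and 5.24 in C5F, with no usable spot in C6 and liver. With irregular spots kept, this probe read 7.67 in liver, against 4.51 in L2 to 5.43 in C6 among the lines. The other Itgb3 probe was near background on all 5 arrays, with 3.24 in liver.

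Of 5 laminin chains tested against liver, 1 rose (Lamb2), 1 fell (Lama4) and 3 did not pass. Lama5, the alpha chain of laminin-511 and laminin-521 in mature epithelial basement membranes, had 8.96 in N1, 9.59 in L2, 7.65 in C5F and 8.34 in C6, against 6.39 in liver. Every line was above liver, and the difference was 2.24 ± 0.44 with an adjusted p of 0.0527, just outside the threshold; it passed under 5 of the alternatives, with adjusted p between 0.0302 and 0.0445. Lamb2, the beta chain of laminin-521, had 6.37 in N1, 5.90 in L2 and 6.16 in C6, against 2.80 in liver, where it was near background, and no usable spot in C5F. It rose by 3.34 ± 0.35 (adjusted p = 0.0384), at least 4.85-fold higher in the lines, and the 3 usable lines lay within 0.48 of each other. The call was lost with an offset of 50 (adjusted p = 0.0510), without the filter on dim probes (0.117) and with a higher floor (0.108). It was also lost without C5F, as was every call of the series against liver, although C5F had no usable spot for it. The other Lamb2 probe was near background throughout. Lamc1, the gamma chain of most laminins, had 7.19 in L2, 6.75 in C5F and 6.45 in C6, against 5.86 in liver, a difference of 1.03 ± 0.29 that did not pass (adjusted p = 0.130).

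Lama3 and Lamb3 belong to laminin-332, the laminin of hemidesmosomes, whose promoters are printed above. Lama3 had 4.40 in L2 and 5.32 in C6, both above background, and 1.34 in N1 and 1.95 in C5F, against 1.35 in liver. Thus 1 line of each class had the transcript above background and the other did not, and the difference from liver of 1.90 ± 1.94 did not pass (adjusted p = 0.517). Lamb3 had 7.91 in N1 and 9.72 in C6, against 5.06 in liver, with irregular spots in L2 and C5F that read 7.84 and 6.38 when kept, so it could not be tested. The other Lamb3 probe was near background on all 5 arrays, between 1.34 and 2.88, so the level rests on 1 probe. Lama4, the alpha chain of endothelial basement membranes, had 1.54 in L2 and the floor in N1, C5F and C6, against 6.05 in liver. It fell by 4.66 ± 0.21 (adjusted p = 0.00703), at least 6.14-fold lower, while its other 2 probes were near background on all arrays.

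**Figure D2:**
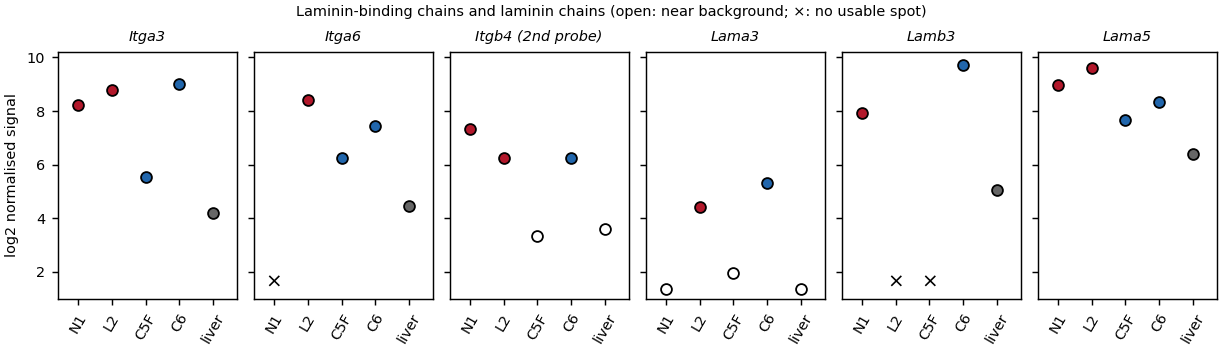
Log2 normalised signal of 3 laminin-binding integrin chains and 3 laminin chains on each array, in N1 and L2 (red, high-metastatic), C5F and C6 (blue, low-metastatic) and liver (grey). Open points were near background and crosses had no usable spot; levels compare within a panel, since each panel is another probe. C5F is the lowest line in Itga3, Itga6, Itgb4 and Lama5, and Lama3 is above background only in L2 and C6.

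Of the collagens of fibrils, none passed the test. Col1a1, the major chain of collagen I, had 7.49 in N1 and 7.10 in C5F, against 7.56 in liver, with no usable spot in L2 and C6 and no test. Its other probe was near background on all 5 arrays, so the 2 probes do not give the same picture. Col1a2 had 7.12 in L2 and 7.07 in C5F, with no usable spot elsewhere. Col5a1, a chain of collagen V that nucleates fibrils, had 3.92 in N1, 4.83 in L2, 4.43 in C5F and 4.82 in C6, against 4.69 in liver, a difference of -0.20 ± 0.46 (adjusted p = 0.782). Its liver value lay inside the range of the lines. Of the chains usable in all 4 lines, Col5a2 varied most between them, with 2.48 in N1 (near background), 6.69 in L2, 3.47 in C5F and 3.76 in C6, against 5.64 in liver. The difference from liver was -1.54 ± 1.80 (adjusted p = 0.571). The other Col5a2 probe was near background on all 5 arrays, so this spread rests on 1 probe. Col11a1 had 4.16 in N1, 2.96 in L2, 4.25 in C5F and 3.77 in C6, against 2.09 in liver, with N1 and C5F above background and a difference of 1.70 ± 0.58 (adjusted p = 0.133). Col5a3 had 5.39 in N1, 5.30 in L2 and 4.92 in C6 and no usable spot in C5F and liver. Col2a1, the collagen of cartilage, was called above background in C5F alone, with 3.62. L2 had 3.56, N1 3.08 and liver 3.07, all called near background, so the call does not show a level particular to C5F.

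Of the other collagens, 3 fell. Col6a1, a chain of the microfibrils that fibroblasts secrete, stood at the floor in all 4 lines, against 5.69 in liver, and fell by 4.35 ± 0.19 (adjusted p = 0.00703), at least 4.79-fold. Its other probe was called irregular on all 5 arrays. Col14a1, a collagen that sits on fibrils, also stood at the floor in all lines, against 4.87 in liver, and fell by 3.53 ± 0.19 (adjusted p = 0.00907), at least 2.71-fold. Col18a1, the basement membrane collagen whose end fragment is endostatin and which hepatocytes also make, stayed above background in 3 lines, with 4.90 in N1, 4.45 in L2 and 5.40 in C5F, against 7.79 in liver. It fell by 2.75 ± 0.33 (adjusted p = 0.0455), and the call was lost when arrays were scaled to the median of probes above background (0.0531), without the filter (0.131), with the irregular spot of C6 kept at 6.67 (0.0633), and with a higher floor (0.0827). Col4a1, the chain of the ubiquitous basement membrane collagen, had 4.07 in N1, 5.14 in L2, 3.17 in C5F and 4.65 in C6, against 5.93 in liver, above background in L2 and C6 of the lines, and its difference of -1.68 ± 0.80 did not pass (adjusted p = 0.222). Col15a1 had 4.60 in N1, 4.94 in L2, 4.41 in C5F and 3.85 in C6, against 3.50 in liver, a difference of 0.96 ± 0.34 (adjusted p = 0.138). Col7a1, the collagen of anchoring fibrils, was above background in C6 alone.

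The question of receptors against matrix chains was read from the same fit. Over all 11949 probes tested against liver the median difference was 0.15, beside the 9.01% that rose and the 9.38% that fell. Among the receptors 12 were tested, of which none rose and 5 fell (Itga1, Itga4, Itga7, Itgal and Itgb2), with a median of -1.12. Among the matrix chains 13 were tested, of which 1 rose (Lamb2) and 4 fell (Lama4, Col6a1, Col14a1 and Col18a1), with a median of -0.20. By the probe that stands for each gene, falls thus occurred on both sides and the only rise was a laminin, while the other probe of the receptor Itgb7 rose as given above. Of the 9 chains that fell, 7 were above background in no line and passed the filter only through liver, which favoured a fall. It did not force a call, since Itga9, kept in the same way, did not pass (adjusted p = 0.0674). Lamb2 and the other Itgb7 probe were near background in liver and passed only through the lines, which favoured a rise. Itgb5 and Col15a1, kept likewise, did not pass. These counts and medians thus describe the chains without supporting a direction for either side. A stricter filter drops probes above background in liver alone but keeps those above background only in both lines of a class, so it favours rises. With it the medians were 1.82 for receptors and 0.38 for matrix chains, and 1 of each fell. Without C5F, and without C6, 1 line is left in the low-metastatic class, and none of the 10 calls passed or could be tested. Nor did any other probe of the series pass then, so the loss is not particular to these chains. The differences that could still be tested kept their direction.

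**Figure D3:**
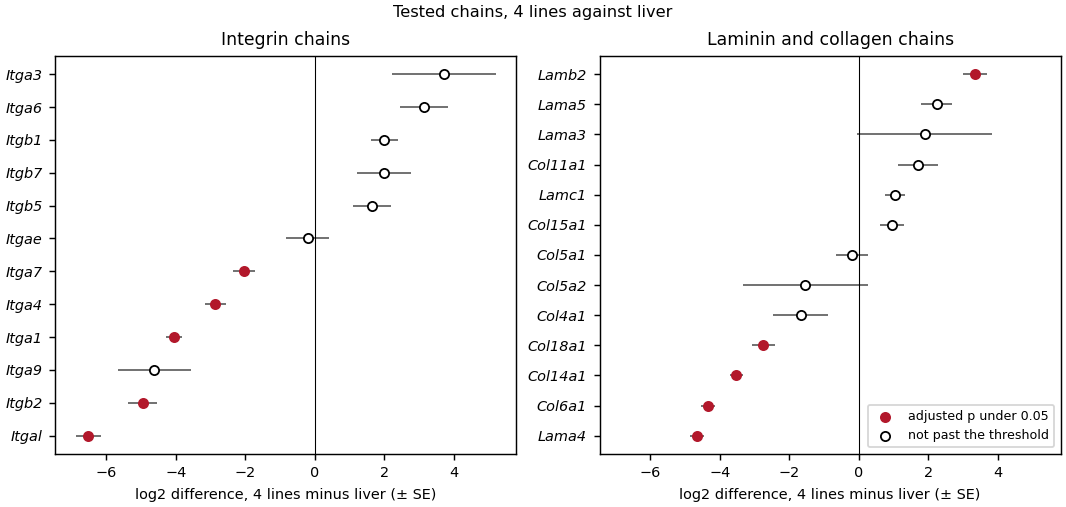
Log2 difference of the 4 lines minus liver (points) with its SE (bars) for each chain tested, 12 integrin chains on the left and 13 laminin and collagen chains on the right. Filled red points passed adjusted p of 0.05 and open points did not. The 5 integrin chains that passed all lie below 0, while on the matrix side Lamb2 lies above 0 and 4 chains below.

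By order alone, 21 chains were usable on all 5 arrays. All 4 lines were above liver for 7 of them, 4 receptors and 3 matrix chains, against 37.3% of all probes usable on 5 arrays. All 4 lines were below liver for 10, 6 receptors and 4 matrix chains, against 34.5% of all probes. Of these 10, 8 were near background in every line and kept only through liver. Of the 7 above liver, Itgb1, Itgb5, Itgb7, Col11a1 and Col15a1 were near background in liver and kept only through the lines. The filter thus favoured the order of these chains. It did not fix that order in each line, since Itgb1, Itgb5, Col11a1 and Col15a1 were near background in C6 too. Itga3 and Lama5 (above liver) and Itga7 and Col4a1 (below it) were above background in liver and in lines. For those chains the filter set no order. Nothing is read from the 2 counts. Across the whole series, 1028 of the 10367 probes above background in liver (9.92%) were above background in no line, and among the chains 8 of 22 were: 5 of 11 receptors and 3 of 11 matrix chains.

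Several of those 8 chains are known from leukocytes, endothelium or fibroblasts, and markers of such cells were also lower in the lines. Against 9.38% of all probes, all 4 tested markers of stellate cells and fibroblasts fell (Dcn, Pdgfrb, Rgs5 and Thy1), as did 4 of 5 tested markers of endothelium (Kdr, Lyve1, Stab1 and Stab2) and 2 of 5 of macrophages and leukocytes (Clec4f and Csf1r). Of these, Dcn, Pdgfrb, Rgs5, Kdr, Lyve1, Stab2 and Csf1r were near background in every line. Like the chains, they were kept only through liver, so the filter favoured their fall. The summed signal of 8 stellate and fibroblast markers was 35.6 to 51.9 in the lines, against 196.7 in liver. That of 5 endothelial markers was 18.4 to 42.0 in the lines, against 571.6 in liver, and that of 5 macrophage and leukocyte markers was 55.2 to 83.7 in the lines, against 3389 in liver. Some markers stayed above background in the lines, 0 to 2 of 9 stellate, 1 to 3 of 6 endothelial and 2 to 3 of 6 macrophage and leukocyte markers, against 5 of each list in liver. Dcn and Pdgfrb of the stellate and fibroblast markers and Stab2 of the endothelial ones stood at the floor in all 4 lines. The part of these cells in the difference of the chains was not tested. In a bulk sample, fewer cells of a type and less RNA per cell cannot be told apart.

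A receptor or trimer needs each of its chains, so the calls were also read per complex, with a chain counted where any of its probes was above background. Of 24 known integrin pairs 17 had both chains named, and both were above background for 1 pair in N1, 5 in L2, 5 in C5F and 2 in C6, against 2 in liver. The counts in L2 and C5F rest on the dim Itgb1 probe, which was above background in those 2 lines alone and there completed alpha3beta1, alpha6beta1, alpha7beta1 and alpha11beta1. Its log2 signal of 3.26 in C5F was called above background, while 3.21 in C6 and 3.06 in N1 were called near. The lowest signal above background was 7.87 in C5F, against 11.8 in C6 and 13.0 in N1. The counts of pairs thus do not share an equal limit and do not rank the lines. Alpha6beta4 was complete in L2 and C6, and in liver. It could not be judged in N1, whose Itga6 spot was not usable, and in C5F the only usable Itgb4 spot was near background. LFA-1 (alphaLbeta2) was complete in liver only. AlphaEbeta7 was complete in N1, C5F and C6. Of 8 laminins 2 had all chains named, and laminin-521 was complete in L2 and C6 and in no other sample, since Lamb2 was near background in liver, and N1 and C5F each lacked a usable spot of 1 chain. Collagen V was complete in L2, C5F and C6, and in liver, while Col5a2 was near background in N1. These are transcripts, and no protein was measured.

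Whether any chain goes with metastatic ability was asked by setting N1 and L2 against C5F and C6. No probe of 13741 passed between the classes (0%), with a lowest adjusted p of 0.489, and 1005 (7.31%) had an unadjusted p under 0.05. None of the 28 chains tested passed either, by the probe that stands for each gene, with adjusted p between 0.670 and 1. Of these, 2 had an unadjusted p under 0.05 (Itga1, near background in all 4 lines, and Lama5), as did the other probes of Itgb7 and Col5a1. The median difference was 0.12 over 14 receptors and 0.05 over 14 matrix chains, against 0.00 over all probes tested. Of the 21 chains usable in all 4 lines, both high lines were above both low lines in 2, the matrix chains Lama5 and Col15a1, against 17.5% of all probes. Both high lines were below both low lines in 2, the receptors Itga1 and Itgae, against 19.2% of all probes. The other probes of Itgb7 and Col5a1 had this order too, while their brighter probes, which stand for the genes, did not. The classes thus did not overlap in 4 of 21 chains, against 36.7% of all probes.

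Lama5 was the clearest of them: 8.96 in N1 and 9.59 in L2, against 7.65 in C5F and 8.34 in C6, a difference of 1.28 ± 0.39 (adjusted p = 0.670) that ranged from 0.94 to 1.63 when a line was left out. The gap between N1 and C6, 0.63, is smaller than that between C6 and C5F, 0.69. Itga6 differed by 1.58 ± 0.71 (adjusted p = 0.742) with 1 usable high line. Itga3 differed by 1.23 ± 1.34 (adjusted p = 0.837), and this turned to -0.49 without C5F, since C6 was the brightest of the 4 lines. Itgb4, by its fully usable probe, differed by 1.99 ± 1.19 (adjusted p = 0.774), with C5F near background.

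For the other chains the differences between the classes were small, or moved with 1 line. Col5a2 differed by 0.97 ± 1.61 (adjusted p = 0.896) and went from 3.08 without N1 to -1.13 without L2. Col15a1 differed by 0.64 ± 0.30 (adjusted p = 0.728), Lamc1 by 0.59 ± 0.30 (0.761), Col4a1 by 0.69 ± 0.72 (0.833), Col5a3 by 0.42 ± 0.25 (0.788) and Lamb2 by -0.03 ± 0.36 (0.998). Itgae differed by -0.91 ± 0.56 (0.777), Col18a1 by -0.73 ± 0.35 (0.757), Col11a1 by -0.45 ± 0.52 (0.846) and Lama3 by -0.77 ± 1.74 (0.921). With a line left out, Lama3 ranged from -2.45 without C5F to 0.76 without N1, Col11a1 from -0.69 without C6 to 0.15 without L2, and Col4a1 from -0.05 without C5F to 1.43 without C6. Itgae ranged from -1.60 without N1 to -0.21 without L2, Itgb5 from -0.71 without C6 to 0.47 without C5F, and Itgb7 from -0.87 without C6 to 0.82 without C5F. The receptors Itga7 (-0.27 ± 0.28, adjusted p = 0.833), Itgb3 (-0.29 ± 0.62, 0.918), Itgb5 (-0.12 ± 0.49, 0.964), Itgb7 (-0.03 ± 0.69, 1), Itgam (0.03 ± 0.26, 0.994) and Itgb1 (0.22 ± 0.35, 0.891) lay within about their SE of 0. The other probe of Itgb7 instead differed by -0.72 ± 0.20 (adjusted p = 0.670). Col5a1 differed by -0.25 ± 0.41 (0.896), and its other probe by -0.72 ± 0.22 (0.670). An adjusted p that misses the threshold does not show that the classes are alike.

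**Figure D4:**
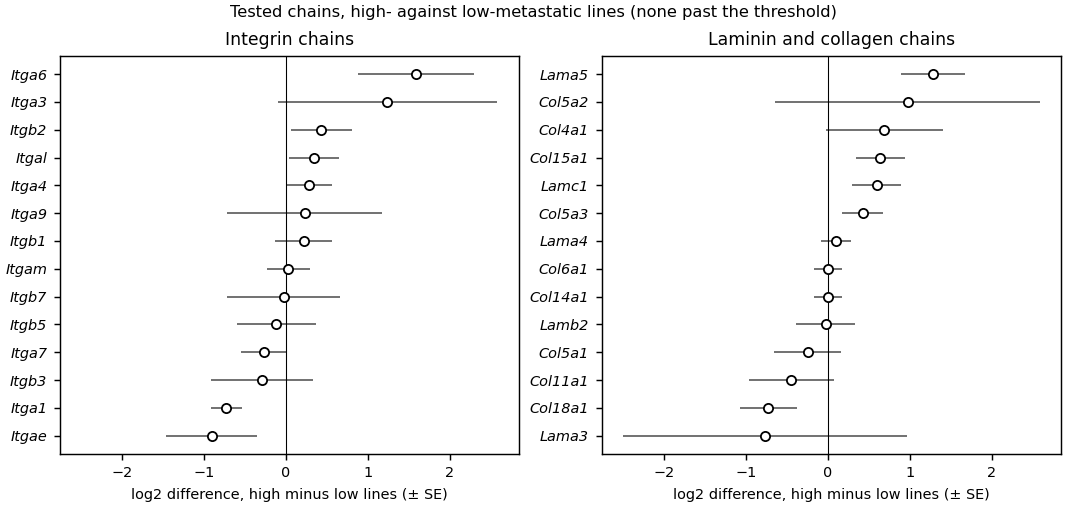
Log2 difference of the high-metastatic minus the low-metastatic lines (points) with its SE (bars) for the 28 chains tested, integrin chains on the left and laminin and collagen chains on the right. None passed adjusted p of 0.05. Itga6 and Lama5 lie farthest above 0, while the bars of Itga3, Col5a2 and Lama3 span 0.

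The lines also differed within a class. The brightest line was at least 4-fold above the dimmest in 3 of the 21 chains usable in all 4 lines, Itga3 (a log2 range of 3.45), Lama3 (3.98) and Col5a2 (4.21), against 13.6% of all probes, a share near that background. C5F was at least 2-fold below each other line in 1 of 21, Itga3, against 3.15% of all probes.

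The genes around these chains were read from lists of known function. Of 24 genes of the adhesion machinery that links integrins to actin, 22 were found and 11 tested against liver, of which 1 fell and none rose, near the 9.38% and 9.01% of all probes. It was Lims2 (PINCH-2, a partner of integrin-linked kinase), which had 2.50 in C5F and the floor in the other 3 lines, against 8.50 in liver, a fall by 6.87 ± 0.53 (adjusted p = 0.0132), at least 33.6-fold. Lims2 was near background in all 4 lines and kept only through liver, so that the filter favoured its fall. Talin (Tln1) and zyxin (Zyx) differed by -0.40 and -0.11 and did not pass.

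Of 14 other matrix ligands 10 were found and 3 tested, of which 1 fell. Vtn (vitronectin, secreted by hepatocytes and a ligand of alphaV integrins) had 2.68 in N1 and the floor in the other 3 lines, against 11.07 in liver, at least 199-fold lower and near background in all lines, so that it too was kept only through liver (log2 difference -9.39 ± 0.60, adjusted p = 0.0102). Fn1 (fibronectin) had 9.51 in N1, 6.24 in L2, 6.66 in C5F and 6.85 in C6, against 9.59 in liver, so that N1 alone of the lines was near the liver level, and its difference of -2.28 ± 1.41 did not pass (adjusted p = 0.313).

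Of 25 genes that modify, fold or cross-link collagen, 21 were found and 12 tested, of which 2 rose and 1 fell. P4ha1, the catalytic chain of collagen prolyl 4-hydroxylase, had 7.01 in N1, 6.44 in L2, 6.20 in C5F and 5.99 in C6, against 2.66 in liver (near background), and rose by 3.75 ± 0.32 (adjusted p = 0.0153), at least 5.82-fold. Crtap, a subunit of the prolyl 3-hydroxylase complex, rose by 2.15 ± 0.29 (adjusted p = 0.0303), at least 1.63-fold. Lox, which cross-links collagen and elastin, had 2.83 in L2 and at most 1.40 in the other 3 lines, against 6.45 in liver, and fell by 4.72 ± 0.66 (adjusted p = 0.0321), at least 8.09-fold. Lox was near background in all 4 lines and kept only through liver. P4ha1 and Crtap were near background in liver and kept only through the lines, so the filter favoured the direction of these 3 genes. The 2 rises and 1 fall among 12 genes stand beside 9.01% and 9.38% of all probes, and nothing is read from the count.

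Of 10 other receptors of collagen and laminin 8 were found and 4 tested, and none passed. Cd44 had 5.6 in N1, 7.22 in L2 and 7.27 in C6, against 3.28 in liver (near background), a difference of 3.56 ± 0.89 (adjusted p = 0.114). Bcam, a receptor for Lama5, had 8.93 in N1, against 7.02 in C5F and 6.32 in C6 and 6.05 in liver, with no usable spot in L2. Between the classes none of these 4 lists held a gene that passed.

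The 3 genes that share the prefix but encode no chain did not pass in either comparison. Itgb3bp (CENP-R, a centromere protein named for binding beta3) had 4.75 in N1, 5.69 in L2 and 4.87 in C5F, against 2.37 in liver, where it was near background, with no usable spot in C6 (difference 2.67 ± 0.55, adjusted p = 0.0873). Itgb1bp1 differed from liver by 0.78 ± 0.27 (adjusted p = 0.174), and Itgb1bp2, known from muscle, by -2.07 ± 0.75 (adjusted p = 0.145) with all 4 lines near background.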

How the data were processed

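The deposited files hold, per the file headers, a raw and a normalized intensity for each spot from CodeLink Expression Analysis 4.1.0.29054. The raw intensity as deposited is background-subtracted, and the authors' normalized intensity is the raw value over the array median, as is the series matrix (largest difference 0). Aligners and builds do not apply to these arrays. Probe names came from the platform annotation: of 33849 discovery probes 16753 had 1 gene, 165 several (3 of them with a chain, not used) and 16931 none. Of 16753 Entrez numbers, 16724 matched RefSeq genes (GRCr8), whose current symbols were used.

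The 1280 control spots were dropped, and irregular, contaminated and masked spots were treated as missing values. Raw intensity was quantile normalised (limma 3.58.1, R 4.3.3, version 1.17.8 of data.table), raised to a floor of 2.53 (the median normalised signal of near-background spots) and expressed as log2. The filter kept 16377 probes, those above background in liver or else in 2 or more lines. One limma model held the groups high-metastatic, low-metastatic and liver (2 residual degrees of freedom at most, prior 1.46). Tests were two-sided, with Benjamini-Hochberg adjustment over all probes tested, and probes without residual degrees of freedom were not tested. Where all arrays of a group were near background, the fold is a bound from each array's lowest signal above background (13.0 in N1, 11.2 in L2, 7.87 in C5F, 11.8 in C6, 14.6 in liver). The fit was checked on simulated data.

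A gene was represented by its probe of highest mean signal. Named were members past the threshold, the 4 of each role with the largest difference in each direction and contrast, a fixed set of well known chains, and up to 3 genes of each other list. Further members and genes of these lists were named after their values were seen. The members and lists were chosen with earlier results of these data known. The labels do not say whether the lines were cultured separately more than once. Slide and sample cannot be told apart.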

Additional observations from a re-analysis of the deposited data

Results flagged for a closer look

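Of 14 genes with a usable spot in all 4 lines and at least 1 line above background, 1 had a line that stood apart from the other 3. Itgae, the alpha chain of the E-cadherin receptor alphaEbeta7, had a log2 signal of 3.54 in L2, near background, while N1, C5F and C6 lay between 4.93 and 5.18. The gap between L2 and the nearest line took up 0.846 of the range of the 4 lines, above the critical value of Dixon's test for 4 samples. In the other Itgae probes, near background on all arrays, L2 had 3.03 and 3.05, inside the range of the other 3 lines. Chance flags about 1 in 20 groups of this kind.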

How the results depend on the processing

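Between the classes, 0 probes and 0 chains passed under every alternative run. The count of probes that rose in the lines against liver was 1077, and it was 621 with an offset of 50, 623 without a filter on dim probes, 1782 with irregular spots kept and 602 with the floor at the highest detection limit, an alternative chosen after seeing the data. The count that fell was 1121, and it was 1725 without a filter, 486 with a stricter filter and 1751 with the higher floor. Scaling arrays to the median of probes above background moved the median over all probes tested to 0.29 against liver and to -0.12 between the classes, and scaling to the 75th percentile moved them to 0.22 and -0.08. The count of receptors that rose went to 1 with irregular spots kept (Itga6) and to 1 with the 4 lines as 1 group (Itgb1). The count of receptors that fell went to 1 with the stricter filter, and that of matrix chains to 1. The count of matrix chains that rose was 2 when scaled to the median of probes above background or to the 75th percentile, with the stricter filter and with irregular spots kept, and 0 without a filter, with the higher floor and when the probe with the most usable arrays stood for a gene, an alternative also chosen after seeing the data. The median of receptors against liver, -1.12, was -0.23 with the offset, 1.82 with the stricter filter, -0.18 with irregular spots kept, 0.21 with the lines as 1 group, -0.30 with the higher floor and 0.72 with the most usable probe. That of matrix chains was 0.38 with the stricter filter and -0.87 with the most usable probe. The stricter filter tests fewer probes by construction. It drops those above background in liver alone but not those above background only in both lines of a class, which favours rises. The cause of the other shifts was not tested. With a line left out, the probes that rose ranged from 0 to 145 and those that fell from 0 to 492, the receptors that fell from 0 to 4 and the matrix chains that fell from 0 to 3, and no chain rose. The medians against liver then ranged from -2.51 to -1.26 for receptors and from -1.94 to -0.23 for matrix chains, and those between the classes from -0.40 to 0.31 and from 0 to 0.68. Leaving out C5F or C6 ended every call of the series against liver, those of the 10 chains among them. Without N1, and without L2, most of the calls of chains remained. Of the single chains, 300 values against liver were obtained under an alternative. Among them 31 lost the threshold, all values of the 10 called chains, which alone could lose it, so 31 of 300 is not a rate of loss. In chains not called, 12 values gained it. No called chain changed sign. No paired analysis was possible because each line is its own sample and nothing in the labels pairs lines across the classes. Signal over background limits 23 chains, which were near background wherever usable.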
